A study of Mus musculus with 6 samples.

Results

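The genes described here are the immunoglobulin genes of the mouse: the variable (V) genes, the joining (J) segments and the constant region genes of the antibody heavy chain and of the kappa and lambda light chains. They were chosen by symbol, after the Ensembl identifiers of the deposited tables had been mapped to mouse symbols, and comprised 155 of 27815 identifiers. The heavy chain contributed 8 constant genes, 4 J segments and 60 V genes, the kappa chain 1 constant gene, 4 J segments and 71 V genes, and the lambda chain 3 constant genes, 1 J segment and 3 V genes. No D segment was among them, and 1 V gene was annotated as a pseudogene.

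The measurements are polyadenylated RNA from the aorta of C57BL/6 mice, with 3 groups of 2 libraries. The ApoE libraries came from ApoE-/- mice, which lack apolipoprotein E in every cell, were kept on chow and were 16 months old with atherosclerotic calcification. The CKD libraries came from mice with chronic kidney disease and medial calcification. These mice lost both poles of the left kidney at 8 weeks and the whole right kidney 1 week later, and then received a 2% phosphate diet and water with 0.45% NaCl for 4 weeks. Their label gives an age of 16 months, which that schedule contradicts, and their true age is not known. The Ctrl libraries came from wild type mice of 8 weeks, labelled as 2 months old. ApoE and Ctrl mice differ in both genotype and age, which cannot be told apart. Whether a library came from 1 animal or from a pool is not stated (the protocol mentions pooling of 4 samples for miRNA), so SDs and p-values measure only the spread between 2 libraries a group.

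Each B cell joins a V gene, in the heavy chain also a D segment, to a J segment in its own DNA, and its descendants inherit that choice, so the set of V genes in a tissue's RNA reflects which B cell clones are there. Naive B cells carry IgM and IgD, made by alternative splicing from the Ighm and Ighd constant genes. After stimulation a cell can replace Ighm by an IgG, IgA or IgE constant gene through class switching, and plasma cells, the antibody-secreting end stage, hold far more immunoglobulin mRNA than resting B cells. In bulk tissue, more cells of a type and more RNA per cell cannot be told apart.

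The V genes that lead the results differ in sequence, and all share a landmark near their 3′ end, the codon of the conserved cysteine after which the third complementarity-determining region begins. Shown are the last 75 coding bases of the 2 most used heavy V genes of each ApoE library, of Ighv1-53, a close relative of Ighv1-55, and of the 2 most used kappa V genes of each ApoE library, 5′ to 3′ as in GENCODE M21 (GRCm38). The capitals mark the cysteine codon.
Ighv6-3, chr12:114391712-114391786, minus strand: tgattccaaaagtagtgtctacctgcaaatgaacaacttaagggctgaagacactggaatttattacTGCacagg
Ighv1-55, chr12:115208095-115208169, minus strand: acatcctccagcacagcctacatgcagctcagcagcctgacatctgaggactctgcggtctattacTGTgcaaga
Ighv1-53, chr12:115158403-115158477, minus strand: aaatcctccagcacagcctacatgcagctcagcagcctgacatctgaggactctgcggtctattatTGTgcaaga
Ighv11-2, chr12:114048241-114048315, minus strand: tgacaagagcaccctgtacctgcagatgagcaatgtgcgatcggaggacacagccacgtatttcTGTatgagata
Ighv1-26, chr12:114788372-114788446, minus strand: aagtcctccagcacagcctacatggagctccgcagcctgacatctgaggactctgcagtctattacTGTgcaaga
Igkv3-2, chr6:70698993-70699067, plus strand: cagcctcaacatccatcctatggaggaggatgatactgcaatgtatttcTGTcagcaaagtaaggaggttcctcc
Igkv12-41, chr6:69858420-69858494, minus strand: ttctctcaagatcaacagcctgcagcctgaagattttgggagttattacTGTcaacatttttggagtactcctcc
Igkv14-126, chr6:67896568-67896642, plus strand: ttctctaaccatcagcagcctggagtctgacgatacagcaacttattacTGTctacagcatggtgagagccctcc
Igkv6-15, chr6:70406469-70406543, minus strand: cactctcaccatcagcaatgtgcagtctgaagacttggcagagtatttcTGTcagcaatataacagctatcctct

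The heavy V genes shown hold 5 to 8 bases after the cysteine codon, whereas the kappa V genes hold 23, the rest of the heavy chain junction being supplied by D and J segments. Over the coding V exon, Ighv1-53 and Ighv1-55 were 95.1% identical and Ighv1-26 and Ighv1-53 87.5%, whereas Ighv11-2 and Ighv6-3 were 66.5% identical to each other and 58.5% to 61.5% to the 3 Ighv1 genes shown. Igkv14-126 shared no stretch of 50 bases with another annotated immunoglobulin transcript. Such shared stretches made up 14.0% of Ighv6-3, 15.8% of Igkv6-15, 21.3% of Igkv3-2, 30.9% of Igkv12-41, 34.7% of Ighv1-55, 38.6% of Ighv11-2, 49.0% of Ighv1-26 and 57.6% of Ighv1-53, and reads from them could be split between genes. Of the 134 V genes, 81 shared more than 20% of their stretches, so that a value for a single V gene is uncertain to that extent. Rearranged genes also carry somatic mutations, whose effect on read assignment was not tested.

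The values are FPKM, which divide reads by exon length and library depth. The value of 1 read gave depths of 14440000 to 16640000 reads a library, and all values of the immunoglobulin genes came out as whole reads within 0.05. Apoe itself was at 13.2 and 11.4 FPKM in the ApoE libraries, at 1410 and 1447 FPKM in the CKD libraries and at 756 and 627 FPKM in the Ctrl libraries. Library Ctrl 2 stood apart in lymphoid genes. The recombinase genes Rag1 and Rag2 and the terminal transferase gene Dntt, which are expressed in developing lymphocytes, were at 5.06, 0.617 and 9.90 FPKM in Ctrl 2, while no other library exceeded 0.0204, 0 and 0.158 FPKM. The 15 T cell genes listed summed to 76.3 FPKM in Ctrl 2, against 16.9 and 34.7 FPKM in ApoE, 2.98 and 3.05 FPKM in CKD and 7.34 FPKM in Ctrl 1. Haemoglobin gene Hbb-bs was at 154 and 481 FPKM in ApoE, 74.1 and 104 FPKM in CKD and 163 and 641 FPKM in Ctrl, highest in ApoE 2 and Ctrl 2, which also held more immunoglobulin RNA than the other library of their group. The part of these differences in the results was not tested, and values without Ctrl 2 are given beside the main results.

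Immunoglobulin RNA was most abundant in the ApoE aortas. The 155 genes summed to 321 and 731 FPKM in ApoE 1 and ApoE 2, to 40.1 and 29.2 FPKM in CKD 1 and CKD 2, and to 48.2 and 112 FPKM in Ctrl 1 and Ctrl 2. Every ApoE library lay above every other library, and both CKD libraries lay below both Ctrl libraries. The means were 526 ± 290 FPKM in ApoE, 34.7 ± 7.70 FPKM in CKD and 79.9 ± 44.8 FPKM in Ctrl (SD, n = 2 each). As log2 ratios of these means, ApoE over Ctrl was 2.72, ApoE over CKD 3.92 and CKD over Ctrl -1.20. Without Ctrl 2, ApoE over Ctrl was 3.45 and CKD over Ctrl -0.48, so that most of the gap between CKD and Ctrl rested on that library. In reads, the genes held 4105 and 9045 in ApoE, 500 and 378 in CKD and 610 and 1280 in Ctrl.

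Most of the 155 genes were rare. Only 10 had a read in all 6 libraries, and 56 had reads in a single library, 20 of these in Ctrl 2 and 19 in ApoE 2. In ApoE 72 and 96 genes were above 0, in CKD 26 and 26, and in Ctrl 51 and 99. For the tests, log2(FPKM + 1) was fitted with limma in 1 model of the 14074 genes that reached 1 FPKM in 2 or more libraries, and only 29 immunoglobulin genes passed that filter. Of these, 11 passed through the ApoE libraries alone and so had to be higher there, which makes counts over the 29 no support for a difference. They were Igha, Ighg2b, Ighg2c, Ighv1-76, Igkv3-2, Igkv3-5, Igkv10-94, Igkv12-41, Igkv14-126, Iglc1 and Iglv2. For these genes the test of ApoE against another group is no independent support for a rise. Likewise, Igkv1-110 passed through the CKD libraries alone and Igkv10-96 through the Ctrl libraries alone, so each had to be higher in that group. Fold changes on this scale understate the change of low genes.

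Between ApoE and Ctrl, 16 of the 29 tested genes were higher in ApoE, where 19.8% of all tested genes were, and 1 was lower, where 24.3% of all tested genes were (limma, Benjamini-Hochberg adjusted p below 0.05 over all genes). Of the 16 that rose, 10 had passed the filter through the ApoE libraries alone. The median log2 difference of the 29 was 1.18, against -0.07 over all genes tested, and the filter raises this median as it raises the count. Those that rose were 4 heavy constant genes, Igkc, 2 lambda constant genes, 2 heavy, 5 kappa and 2 lambda V genes. With all 155 genes kept in the fit, 13 were higher and 3 lower, against 2377 higher and 2937 lower of all 27815 genes. The share called higher was thus near that of all genes. In that fit the median was 0.07, against 0 over all genes. Without Ctrl 2, the median log2 difference was 1.55 over 25 tested genes. It was -0.24 over 15 without ApoE 2, 0.59 over 18 without ApoE 1 and 0.97 over 28 without Ctrl 1. Over all genes tested, the medians of these 4 fits were -0.06, -0.04, -0.14 and -0.06. The filter was applied anew each time, so genes that had passed through the ApoE libraries alone left the fits without ApoE 1 or ApoE 2. In each of these fits the group left with 1 library was assumed to vary like the others.

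Among the heavy chain constant genes, Ighm, which encodes the mu chain of IgM, was the most abundant in every library. Ighm (chr12:113418558-113422730, minus strand) was at 56.5 and 152 FPKM in ApoE, 10.9 and 8.52 FPKM in CKD and 11.2 and 23.6 FPKM in Ctrl. Both ApoE libraries lay above the rest, and Ctrl 2 alone lay above 20 FPKM among the other 4. The log2 difference of ApoE from Ctrl was 2.43 ± 0.53 (SE, limma adjusted p = 0.0142), but over the alternatives its adjusted p ran from 0.00165 to 0.0698, and the call was lost without ApoE 2 and without Ctrl 1.

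Of the 4 IgG constant genes, Ighg2b and Ighg2c passed the test between ApoE and Ctrl. C57BL/6 mice carry Ighg2c in place of the Ighg2a gene of other strains. Ighg2c was at 9.04 and 4.97 FPKM in ApoE, 0.102 and 0.209 FPKM in CKD and 0.499 and 0.548 FPKM in Ctrl, and its log2 difference of ApoE from Ctrl was 2.35 ± 0.26 (SE, limma adjusted p = 0.00146). The call for Ighg2c held in all 13 alternatives in which the gene could be tested, which leave out those without an ApoE library and the stricter filter on level. As Ighg2c had passed the filter through the ApoE libraries alone, its direction was set beforehand and these alternatives do not test it. Ighg2b, which encodes another gamma 2 chain, was at 3.14 and 16.5 FPKM in ApoE, 0.0253 and 0.0517 FPKM in CKD and 0.0673 and 0.0247 FPKM in Ctrl. These values stand for 134 and 656 reads in ApoE, 1 and 2 in CKD and 3 and 1 in Ctrl. The ratio of summed, depth-scaled reads of Ighg2b, ApoE over Ctrl, was 204, with an exact counting interval of 79.2 to 750 that covers counting error only. The log2 difference was 3.02 ± 0.62 (SE, limma adjusted p = 0.0120), and the call was lost without Ctrl 1 (adjusted p = 0.0510, range over the alternatives 0.00409 to 0.0510).

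Ighg1 did not pass the filter and was uneven. It was at 5.79 and 0.675 FPKM in ApoE and at 0.0232 and 0.918 FPKM in Ctrl, with no read in either CKD library, so the ApoE and Ctrl libraries overlapped. Ighg3 stayed at or below 0.175 FPKM in every library, with 7 and 6 reads in ApoE, none in CKD and 0 and 4 in Ctrl. The order of the gamma genes also differed between the ApoE libraries. Ighg2c supplied 49.8% of IgG FPKM in ApoE 1 and 22.3% in ApoE 2, Ighg2b 17.3% and 73.9%, and Ighg1 31.9% and 3.03%.

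Igha, the constant gene of IgA, was at 3.72 and 1.69 FPKM in ApoE, 0.760 and 0.311 FPKM in CKD and 0.698 and 0.347 FPKM in Ctrl. The ApoE libraries lay above the others, which overlapped. Its log2 difference of ApoE from Ctrl was 1.24 ± 0.32 (SE, limma adjusted p = 0.0247), and the call was lost without either Ctrl library and without the filter on low values (range over the alternatives 0.0101 to 0.110). Ighe, for IgE, held 2 and 0 reads in ApoE, none in CKD and 0 and 11 in Ctrl, all 11 in Ctrl 2.

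Ighd, the delta constant gene of naive B cells, went another way. It was at 1.32 and 4.67 FPKM in ApoE, 0.107 and 0.292 FPKM in CKD and 1.93 and 5.95 FPKM in Ctrl. The ApoE and Ctrl libraries overlapped, and the CKD libraries lay below both groups. The log2 difference was -0.31 ± 0.54 for ApoE from Ctrl (SE, limma adjusted p = 0.666), -1.92 ± 0.54 for CKD from Ctrl (adjusted p = 0.0872) and 1.60 ± 0.54 for ApoE from CKD (adjusted p = 0.0613), none of which passed the threshold. Relative to Ighm, the Ighd level was 0.0234 and 0.0308 in ApoE, 0.00980 and 0.0342 in CKD and 0.172 and 0.251 in Ctrl. Both Ctrl libraries lay above the other 4, with 2 libraries a group and no test.

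**Figure D1:**
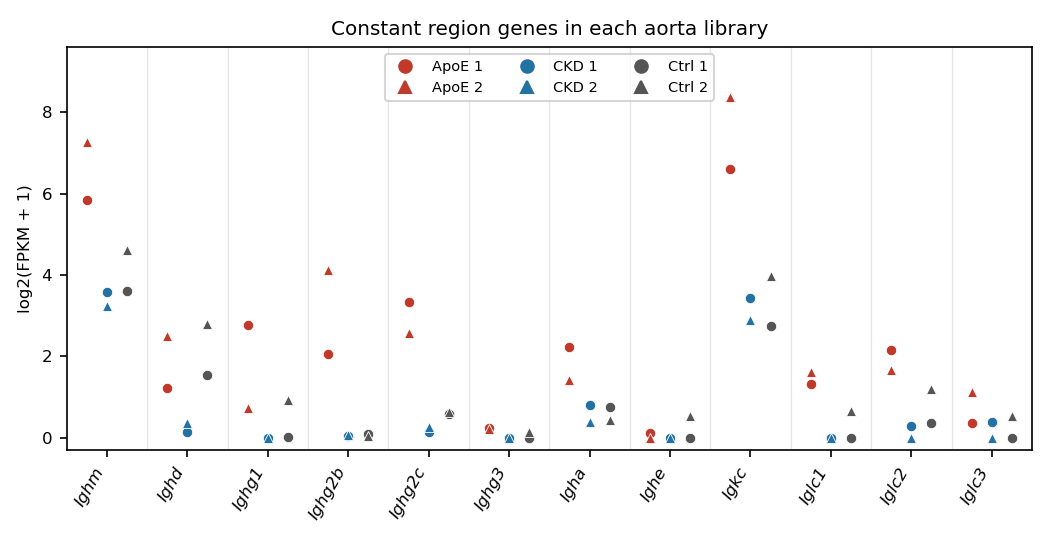
Level of each constant region gene, as log2(FPKM + 1), in the 6 libraries, with ApoE in red, CKD in blue and Ctrl in grey, circles for replicate 1 and triangles for replicate 2. The ApoE points lie above all others for Ighm, Ighg2b, Ighg2c, Igha, Igkc, Iglc1 and Iglc2, whereas for Ighd they overlap with Ctrl and lie above CKD.

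The isotype make-up of the heavy chain followed from these levels. Ighm supplied 70.9% and 84.1% of heavy chain constant FPKM in ApoE, 91.6% and 90.8% in CKD and 77.7% and 73.9% in Ctrl. The 4 IgG genes together supplied 22.7% and 12.3% in ApoE, 1.07% and 2.78% in CKD and 4.08% and 4.99% in Ctrl, so that both ApoE libraries exceeded the other 4. Ighd supplied 1.66% and 2.59% in ApoE, 0.898% and 3.11% in CKD and 13.4% and 18.6% in Ctrl. Igha supplied between 0.935% and 6.39% in all libraries, with overlap between the groups. In CKD the IgG share rested on 3 and 6 reads.

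**Figure D2:**
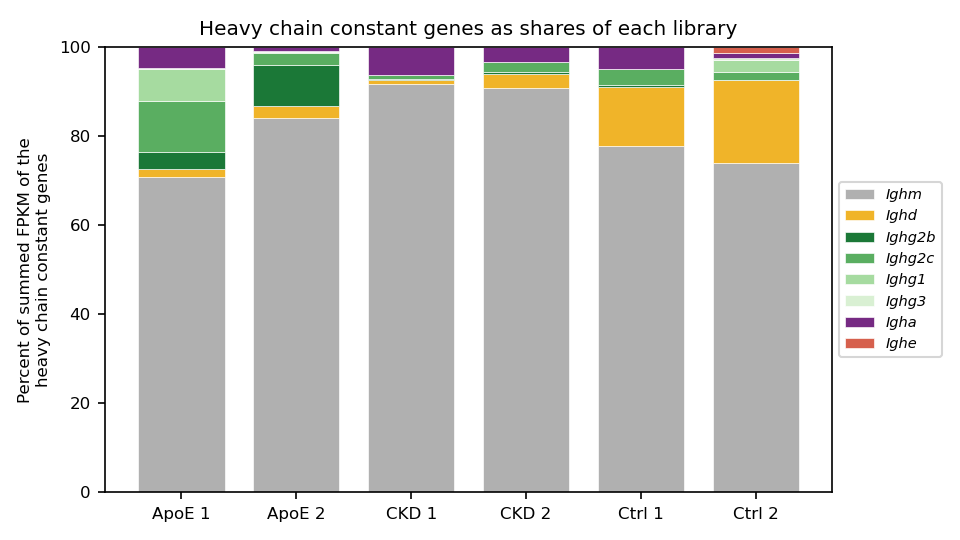
Stacked bars show, for each library, the share of every heavy chain constant gene in the summed FPKM of these genes (percent). IgG genes (greens) take 22.7% and 12.3% in ApoE and at most 4.99% elsewhere, and Ighd (yellow) takes 13.4% and 18.6% in Ctrl and at most 3.11% elsewhere.

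The light chains were mostly kappa in all groups. Igkc (chr6:70726435-70726966, plus strand), the only kappa constant gene, was at 96.4 and 333 FPKM in ApoE, 9.79 and 6.38 FPKM in CKD and 5.76 and 14.8 FPKM in Ctrl. The ApoE libraries lay far above the others, which overlapped. Its log2 difference of ApoE from Ctrl was 4.12 ± 0.66 (SE, limma adjusted p = 0.00510), and the call held in all 16 alternatives (adjusted p 0.00046 to 0.0271). A long noncoding RNA gene on the same strand, Gm30211, spans Igkc, and 10 of the 155 genes overlap another annotated gene, so their reads cannot be fully told apart. Relative to Ighm, the Igkc level was 1.71 and 2.19 in ApoE, 0.898 and 0.749 in CKD and 0.514 and 0.625 in Ctrl, with no overlap between groups. No test was made of that ratio.

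The lambda constant genes were less abundant. Iglc2 was at 3.49 and 2.198 FPKM in ApoE, 0.221 and 0 FPKM in CKD and 0.295 and 1.30 FPKM in Ctrl, and its log2 difference of ApoE from Ctrl was 1.14 ± 0.33 (SE, limma adjusted p = 0.0349, range over the alternatives 0.0211 to 0.165, lost in 6 of 15). Iglc1 was at 1.52 and 2.07 FPKM in ApoE, at 0 in both CKD libraries and at 0 and 0.582 FPKM in Ctrl, with a log2 difference of 1.15 ± 0.26 (SE, limma adjusted p = 0.0167, range over the alternatives 0.0121 to 0.0747, lost in 2 of 13). Iglc3 did not pass the filter and overlapped between groups. Lambda genes made up 5.198% and 1.62% of light chain constant FPKM in ApoE, 5.05% and 0% in CKD and 4.87% and 13.5% in Ctrl, the highest share being that of Ctrl 2.

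Of the kappa V genes, Igkv3-2 showed the largest difference. It was at 30.05 and 18.3 FPKM in ApoE, with 181 and 103 reads, at 0 in both CKD libraries and at 0 and 0.175 FPKM in Ctrl, where it held a single read. Its log2 difference of ApoE from Ctrl was 4.50 ± 0.24 (SE, limma adjusted p = 0.000233). The ratio of its depth-scaled reads, ApoE over Ctrl, was 293, with an exact counting interval of 52.2 to 1.161e+04. Igkv12-41 was at 22.6 and 5.04 FPKM in ApoE and had no read in the other 4 libraries. With each library at 0 set to 3 reads, its ApoE mean of 13.8 FPKM was at least 25.3-fold that of Ctrl and 23.4-fold that of CKD. These bounds hold for the mean, and ApoE 2 lay well below it. The log2 difference of Igkv12-41, ApoE from Ctrl, was 3.58 ± 0.59 (SE, limma adjusted p = 0.00565). Igkv6-15 was at 6.51 and 32.0 FPKM in ApoE, at 0 in CKD and at 0.173 and 1.14 FPKM in Ctrl, with a log2 difference of 3.31 ± 0.68 (SE, limma adjusted p = 0.0122). That last call was lost without Ctrl 1 (range over the alternatives 0.00491 to 0.0618).

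The other kappa V genes with a high mean level were those of a single library or of all groups. Igkv14-126 was at 1.58 and 34.6 FPKM in ApoE, 0.756 and 0.580 FPKM in CKD and 0 and 0.185 FPKM in Ctrl. All ApoE values exceeded all others, but the pair of ApoE libraries lay so far apart that the difference from Ctrl, 3.14 ± 1.11 on the log2 scale, did not pass (SE, limma adjusted p = 0.0654). Igkv15-103 was at 0.167 and 17.4 FPKM in ApoE, 0 and 0.923 FPKM in CKD and 0.481 and 0.176 FPKM in Ctrl, and did not pass the filter. Igkv1-117 was at 0.466 and 4.00 FPKM in ApoE, 1.17 and 2.74 FPKM in CKD and 1.19 and 1.14 FPKM in Ctrl, with overlap between all groups. Its close relative Igkv1-110 was at 0.313 and 0.503 FPKM in ApoE, 1.86 and 1.55 FPKM in CKD and 0.450 and 0.988 FPKM in Ctrl.

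Of the 3 lambda V genes, Iglv1 and Iglv2 rose in ApoE against Ctrl. Iglv1 was at 4.01 and 6.54 FPKM in ApoE, 0.346 and 0.177 FPKM in CKD and 0.461 and 1.01 FPKM in Ctrl, with a log2 difference of ApoE from Ctrl of 1.84 ± 0.26 (SE, limma adjusted p = 0.00342) that held in all 15 alternatives in which it was tested. Iglv2, 96.4% identical to Iglv1, was at 4.63 and 2.02 FPKM in ApoE, 0.185 and 0 FPKM in CKD and 0.164 and 0.902 FPKM in Ctrl, with a log2 difference of 1.47 ± 0.37 (SE, limma adjusted p = 0.0233, range over the alternatives 0.0191 to 0.110). Iglv3, 54.0% identical to Iglv1, was at 0.659 and 1.06 FPKM in ApoE, 0 in CKD and 0.631 and 1.73 FPKM in Ctrl. Its ApoE and Ctrl libraries overlapped, and its log2 difference was -0.19 ± 0.28 (SE, limma adjusted p = 0.608).

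The heavy V genes were led by different genes in the ApoE libraries. In ApoE 1, Ighv6-3 held 79 of 229 heavy V reads, or 34.5% (Wilson 95% interval 28.6% to 40.9%), and Ighv1-55 held 65, or 28.4% (22.9% to 34.5%). In ApoE 2 these genes held 2 and 3 of 267 reads. There, Ighv11-2 held 61 reads, or 22.8% (18.2% to 28.3%), and Ighv1-26 held 55, or 20.6% (16.2% to 25.9%), against 1 and 2 reads in ApoE 1. These intervals cover counting error only, since reads without molecular identifiers are not independent molecules. Ighv1-72 with 39 and 2 reads and Ighv1-80 with 0 and 28 reads in ApoE, both picked out after their values were seen, showed the same unevenness. Ighv1-72 is known from antibodies to the hapten nitrophenyl, and 92.5% of its stretches of 50 bases occur in another annotated gene.

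In FPKM, Ighv6-3 was at 13.9 and 0.378 in ApoE and at 0 in the other 4 libraries, and Ighv1-55 was at 9.83 and 0.486 in ApoE, 0 and 0.167 in CKD and 0.145 and 0.159 in Ctrl. Ighv11-2 was at 0.136 and 8.90 FPKM in ApoE, 0 in CKD and 0.130 and 0.143 FPKM in Ctrl. None of these 3 reached 1 FPKM in 2 libraries, so none was tested. Ighv1-26 was at 0.358 and 10.5 FPKM in ApoE, 0 and 2.37 FPKM in CKD and 0.514 and 2.07 FPKM in Ctrl, with overlap between all groups. Only Ighv1-53 and Ighv1-76 passed the test between ApoE and Ctrl. Ighv1-53 was at 2.86 and 5.56 FPKM in ApoE, 1.73 and 0 FPKM in CKD and 0 in both Ctrl libraries. Its ApoE mean was at least 7.81-fold that of Ctrl with 3 reads as the floor in each Ctrl library. Ighv1-76 was at 1.36 and 2.74 FPKM in ApoE, 0 in CKD and 0 and 0.718 FPKM in Ctrl. Their log2 differences of ApoE from Ctrl were 2.33 ± 0.50 for Ighv1-53 (SE, limma adjusted p = 0.0137, range over the alternatives 0.00371 to 0.0881) and 1.18 ± 0.34 for Ighv1-76 (SE, limma adjusted p = 0.0341, range over the alternatives 0.0146 to 0.148).

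A heavy and a kappa gene that are known as partners led the same library. In mice, Ighv11-2 paired with Igkv14-126 forms the recurrent antibody of B-1a cells, an innate-like B cell class, that binds phosphatidylcholine. Ighv11-2 held 1 and 61 reads and Igkv14-126 9 and 184 reads in ApoE, and in ApoE 2 each ranked first of its chain. In CKD the pair held 0 and 0 reads of Ighv11-2 and 4 and 3 of Igkv14-126, and in Ctrl 1 and 1 reads of Ighv11-2 and 0 and 1 of Igkv14-126. Reads of bulk RNA do not show whether both chains came from the same cells. Ighv7-1, the heavy V gene of the T15 antibodies to phosphorylcholine, held 1 read in all, in Ctrl 2.

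**Figure D3:**
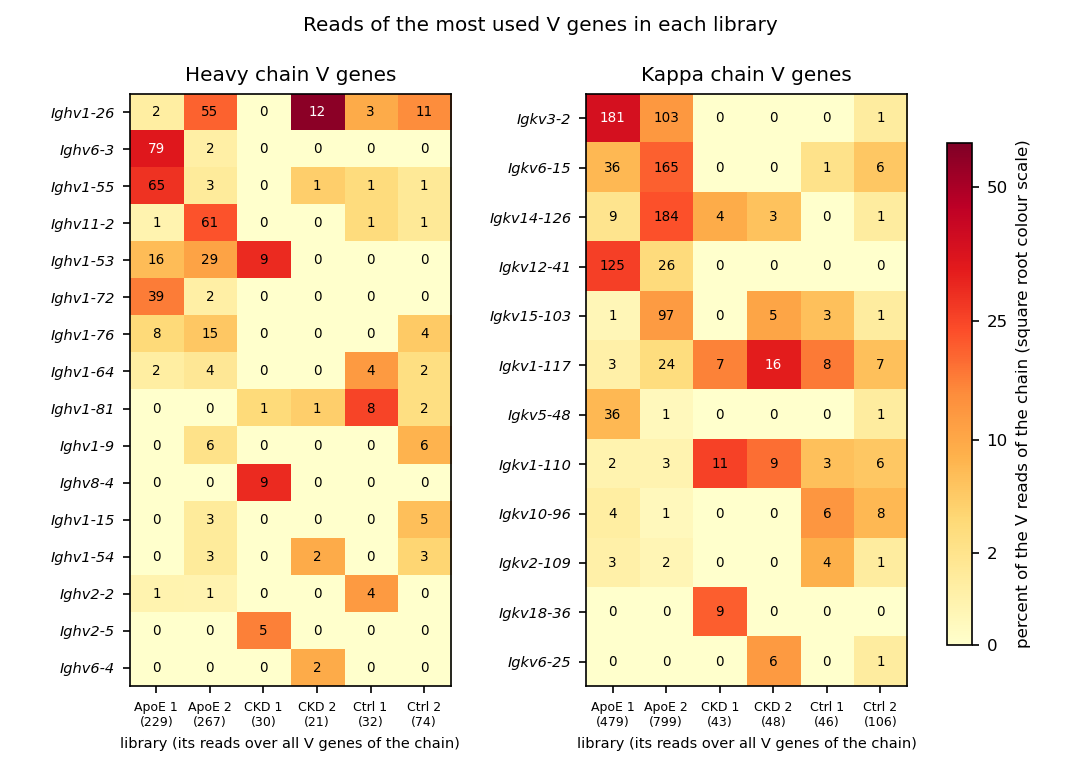
Reads of the most used heavy (left panel) and kappa (right panel) V genes in each library, with the number of reads printed in each cell and colour giving the percent of that library's V reads of the chain on a square root scale. Library totals stand in brackets. ApoE 1 is led by Ighv6-3 (79 reads) and Igkv3-2 (181 reads), ApoE 2 by Ighv11-2 (61 reads) and Igkv14-126 (184 reads).

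Usage of V genes was compared between libraries as the shared usage, the sum over genes of the smaller of their shares of reads. Between ApoE 1 and ApoE 2 it was 16.1% for heavy and 33.7% for kappa V genes. Between CKD 1 and CKD 2 it was 3.33% for heavy and 43.6% for kappa V genes, from 30 and 21 heavy V reads. Between Ctrl 1 and Ctrl 2 it was 22.9% for heavy and 38.6% for kappa V genes. Pairs of libraries from different groups shared 5.64% to 36.4% of heavy and 4.38% to 36.9% of kappa usage. The heavy V genes of ApoE 2 shared 36.4% with Ctrl 2, more than with ApoE 1. Replicates of a group therefore did not share heavy V genes more than libraries of different groups did.

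By family, Ighv1, the largest family with 30 of the 60 heavy V genes, took 61.1% and 67.4% of heavy V reads in ApoE, 43.3% and 81.0% in CKD and 59.4% and 73.0% in Ctrl, with overlap between the groups. The Ighv6 family took 34.5% and 1.12% in ApoE, and the Ighv11 family, represented by Ighv11-2 alone, took 0.44% and 22.8%. Of the kappa families, Igkv1 took 1.46% and 4.13% in ApoE, 44.2% and 60.4% in CKD and 26.1% and 16.0% in Ctrl. For Igkv1 the ApoE libraries lay below both other groups and the CKD libraries above, on 43 and 48 kappa V reads in CKD. Igkv3 took 40.5% and 15.3% in ApoE, 2.33% and 0% in CKD and 8.70% and 5.66% in Ctrl, most of it Igkv3-2 in ApoE.

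The ApoE libraries held many more V reads but spread them over fewer genes than the Ctrl libraries for their depth. V genes held 764 and 1121 reads in ApoE, 76 and 70 in CKD and 86 and 201 in Ctrl. V genes above 0 numbered 56 and 82 in ApoE, 17 and 19 in CKD and 39 and 79 in Ctrl. At an equal draw of 70 V reads, the expected number of V genes was 19.7 and 25.3 in ApoE, 16.6 and 19.0 in CKD and 34.6 and 44.8 in Ctrl. Both Ctrl libraries lay above the other 4, also with Ctrl 2 left out. The effective number of V genes, the exponential of the Shannon entropy of their FPKM shares, was 15.6 and 24.0 in ApoE, 12.6 and 11.8 in CKD and 29.4 and 60.0 in Ctrl. The 5 most abundant V genes supplied 63.8% and 55.0% of V FPKM in ApoE, 60.9% and 67.9% in CKD and 35.3% and 20.9% in Ctrl. None of these numbers was tested, with 2 libraries a group.

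Heavy and kappa V genes showed this order separately. At 21 heavy V reads, 6.25 and 9.78 V genes were expected in ApoE, 6.30 and 8.00 in CKD and 11.5 and 15.2 in Ctrl. At 43 kappa V reads, 11.2 and 13.9 were expected in ApoE, 8.00 and 9.68 in CKD and 20.2 and 27.1 in Ctrl. Many V genes in Ctrl stood on 1 read, 23 of 39 in Ctrl 1 and 32 of 79 in Ctrl 2, against 17 of 56 in ApoE 1 and 20 of 82 in ApoE 2. At least 10 reads were reached by 12 and 18 V genes in ApoE, 1 and 2 in CKD and 0 and 2 in Ctrl.

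**Figure D4:**
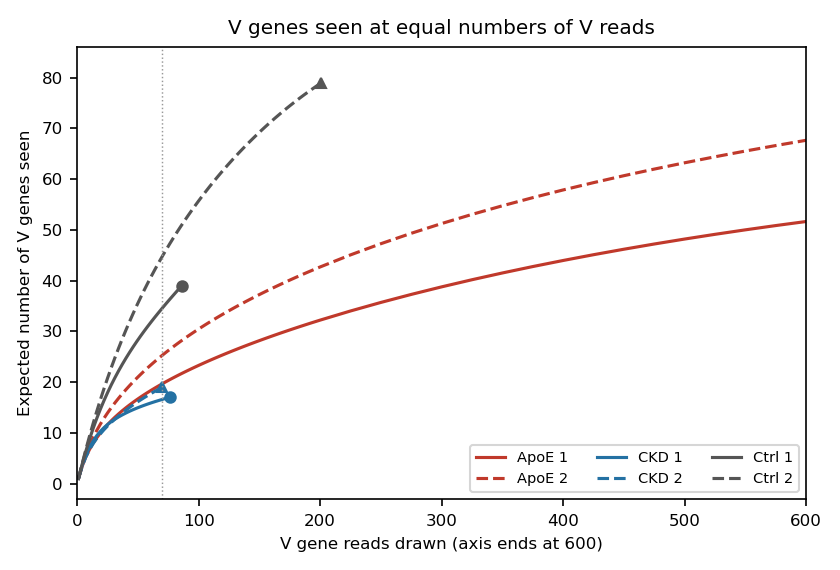
Expected number of V genes seen when a given number of V reads is drawn from each library (solid lines for replicate 1, dashed for replicate 2), with a marker at a library's own total where it lies below 600 reads, and a dotted line at 70 reads. At 70 reads the Ctrl libraries reach 34.6 and 44.8 V genes, and the ApoE and CKD libraries lie between 16.6 and 25.3.

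The J segments, of 38 to 100 bases of exon, gave few reads, 7 and 6 in ApoE, 3 and 1 in CKD and 11 and 18 in Ctrl. Ighj4 held 2 and 1 reads in ApoE, none in CKD and 6 and 3 in Ctrl, which per length came to 2.32 and 1.25 FPKM in ApoE and 6.68 and 3.67 FPKM in Ctrl. It was the single gene called lower in ApoE than in Ctrl (log2 difference -1.13 ± 0.30, SE, limma adjusted p = 0.0262, range over the alternatives 0.0104 to 0.134), and a handful of reads carries that call. Igkj5, the most abundant kappa J segment, held 2 and 3 reads in ApoE, none in CKD and 1 and 4 in Ctrl. The sequence of Ighj4 is given, with the codon of the tryptophan that starts the fourth framework region in capitals, because it shows how short the target is on which these values rest.
Ighj4, chr12:113428514-113428567, minus strand: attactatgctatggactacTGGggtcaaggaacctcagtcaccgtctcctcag

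Between CKD and Ctrl, no tested immunoglobulin gene was higher, where 2.23% of all tested genes were, and 1 of 29 was lower, where 3.21% of all tested genes were (limma, Benjamini-Hochberg adjusted p below 0.05). At an unadjusted p below 0.05, limma gave 1 higher and 6 lower. The gene called was Ighj4 (log2 difference -2.58 ± 0.30, SE, adjusted p = 0.0227), which held no read in CKD and 6 and 3 in Ctrl, and the call was lost in 7 of 15 alternatives (adjusted p 0.0150 to 0.121), among them the fits without Ctrl 1, Ctrl 2, CKD 1, ApoE 1 or ApoE 2. Among genes not called, Ighm, Ighd, Ighg2c and Iglv1 lay lower in both CKD libraries than in both Ctrl libraries. Genes whose libraries do not overlap were not counted over all tested genes, so no count of them is read as a fall. For Ighm the log2 difference was -0.71 ± 0.53 (SE, limma adjusted p = 0.405) and for Igkc -0.21 ± 0.66 (adjusted p = 0.853). A p above the threshold does not show that the groups were alike. Igkv1-110 lay higher in both CKD libraries than in both Ctrl libraries, with a log2 difference of 0.67 ± 0.21 (SE, limma adjusted p = 0.104). Having passed the filter through the CKD libraries alone, it had to lie higher there. Igkv14-126 also lay higher in both CKD libraries, on 4 and 3 reads in CKD against 0 and 1 in Ctrl.

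Between ApoE and CKD, 18 of 29 tested genes were higher in ApoE, where 18.5% of all tested genes were, and 1 was lower, where 21.2% of all tested genes were (limma, Benjamini-Hochberg adjusted p below 0.05). Of the 18, 10 had passed the filter through the ApoE libraries alone. The log2 differences of ApoE from CKD were 4.61 ± 0.24 for Igkv3-2 (SE, limma adjusted p = 0.000542), 4.34 ± 0.66 for Igkc (adjusted p = 0.00528), 3.98 ± 0.68 for Igkv6-15 (adjusted p = 0.00766), 3.14 ± 0.53 for Ighm (adjusted p = 0.00715) and 3.03 ± 0.62 for Ighg2b (adjusted p = 0.0133). Those for Igkc, Ighm and Igkv6-15 held in all 16 alternatives, and that for Ighg2b was lost without CKD 1 and without CKD 2. The exception was Igkv1-110, lower in ApoE by -0.94 ± 0.21 (SE, limma adjusted p = 0.0169), with 2 and 3 reads in ApoE and 11 and 9 in CKD. It had passed the filter through the CKD libraries alone and so had to be lower in ApoE, which makes its call no independent support for a difference. That call was lost without either ApoE library. Both comparisons with ApoE rest on the same ApoE libraries. Without ApoE 1, the median log2 difference was 1.35 over 18 tested genes, against -0.12 over all genes tested. Without ApoE 2, it was 1.73 over 15, against -0.01 over all genes tested.

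The genes of the cells that make antibodies did not move as a block. Of 21 B cell genes in the tables, 10 were tested, and 4 rose in ApoE against Ctrl and none fell, with a median log2 difference of 0.23. This and the counts of the lists that follow stand beside the 19.8% of all tested genes that were higher and the 24.3% that were lower in ApoE than in Ctrl. Blk and Blnk passed the filter through the ApoE libraries alone and so had to be higher there. The same holds for Jchain, Slamf7, Prdm1, Mzb1, Ung and Glycam1 of the lists that follow. For these genes the test of ApoE against another group is no independent support for a rise, and they raise the counts and medians of their lists. Among the B cell genes, 4 were called higher in ApoE than in Ctrl. Those that rose were Ly86 (2.995 ± 0.18, SE, limma adjusted p = 0.000278), Blnk (3.27 ± 0.26, adjusted p = 0.000515), Cd37 (2.79 ± 0.31, adjusted p = 0.00157) and Cd22 (2.95 ± 0.39, adjusted p = 0.00253). Ly86, Blnk and Cd37 are also expressed by macrophages, and 11 of 12 macrophage genes rose as well. Cd79a, Mzb1 and Xbp1 are defining genes described whatever their call, chosen with their values known. Cd79a, a signalling chain of the B cell receptor, was at 1.29 and 4.20 FPKM in ApoE, 0.557 and 0.238 FPKM in CKD and 1.24 and 7.75 FPKM in Ctrl, with a log2 difference of ApoE from Ctrl of -0.36 ± 0.69 (SE, limma adjusted p = 0.697).

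Set against this gene, the Igkc level per Cd79a was 74.6 and 79.2 in ApoE, 17.6 and 26.8 in CKD and 4.66 and 1.91 in Ctrl. By this ratio the ApoE and CKD libraries lay above both Ctrl libraries, including Ctrl 1. The denominators in CKD were low, with Cd79a at 0.557 and 0.238 FPKM. Per Jchain, the level of Igkc was 26.7 and 18.6 in ApoE, 16.6 and 9.27 in CKD and 21.9 and 15.6 in Ctrl. Both ApoE libraries lay above both CKD libraries, and Ctrl overlapped with each of these groups.

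Of the 14 plasma cell genes tested, 7 rose in ApoE against Ctrl and none fell, with a median log2 difference of 0.76. Jchain, the joining chain of polymeric IgM and IgA, was at 3.61 and 17.9 FPKM in ApoE, 0.591 and 0.688 FPKM in CKD and 0.263 and 0.945 FPKM in Ctrl, and its log2 difference of ApoE from Ctrl was 2.57 ± 0.63 (SE, limma adjusted p = 0.0215). Slamf7, a surface receptor, rose by 4.04 ± 0.27 (SE, limma adjusted p = 0.000355), and Sdc1, the syndecan used as a plasma cell marker, by 1.48 ± 0.17 (adjusted p = 0.00171). Tnfrsf13b, a receptor for survival factors, rose by 1.38 ± 0.20 (adjusted p = 0.00348) and Prdm1, the regulator of plasma cell formation, by 1.01 ± 0.17 (adjusted p = 0.00553). Sdc1, Slamf7 and Prdm1 are expressed outside plasma cells too. As Jchain, Slamf7, Prdm1 and Mzb1 had passed the filter through the ApoE libraries alone, their direction was set beforehand. Mzb1, a chaperone of marginal zone and plasma cells, was at 1.39 and 3.34 FPKM in ApoE, 0.0747 and 0 FPKM in CKD and 0.398 and 0.949 FPKM in Ctrl. Xbp1, the secretory regulator of plasma cells, was at 64.4 and 64.1 FPKM in ApoE, 53.5 and 65.3 FPKM in CKD and 55.8 and 47.2 FPKM in Ctrl. Neither was called between ApoE and Ctrl, with 0.96 ± 0.33 for Mzb1 (SE, limma adjusted p = 0.0564) and 0.32 ± 0.17 for Xbp1 (adjusted p = 0.174). In CKD against Ctrl only Irf4 of this list rose, by 2.27 ± 0.38 (SE, limma adjusted p = 0.0384), and in ApoE against CKD 8 rose and 1 fell.

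**Figure D5:**
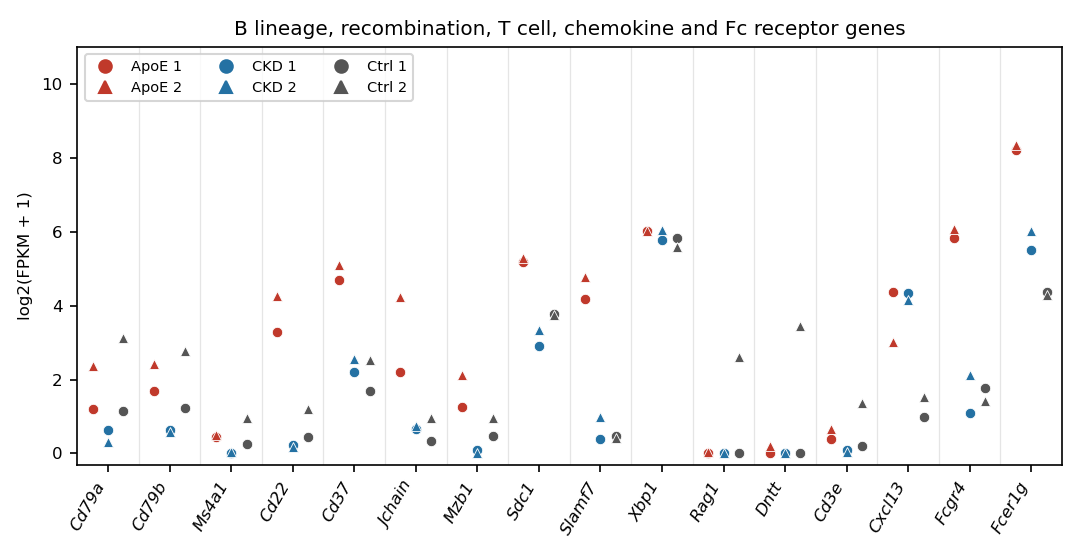
Level of B lineage, recombination, T cell, chemokine and Fc receptor genes, as log2(FPKM + 1), in the 6 libraries (ApoE red, CKD blue, Ctrl grey, circles replicate 1, triangles replicate 2). Jchain, Sdc1 and Slamf7 are higher in ApoE than in the other groups, Cd79a overlaps between ApoE and Ctrl, and Rag1 and Dntt stand out in Ctrl 2 at 5.06 and 9.90 FPKM.

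Genes of germinal centres and class switching, the sites and process of isotype change, were low or mixed. Of 8 tested, 4 rose and 1 fell in ApoE against Ctrl, none was called in CKD against Ctrl, and 3 rose and 2 fell in ApoE against CKD. S1pr2, a receptor of germinal centre B cells and of other cells, rose in ApoE against Ctrl by 1.22 ± 0.23 (SE, limma adjusted p = 0.00908), and Ung, a uracil glycosylase of DNA repair, by 0.72 ± 0.20 (adjusted p = 0.0291), whereas Fas fell, with -0.73 ± 0.14 (adjusted p = 0.00824). Ung had passed the filter through the ApoE libraries alone. None of the 5 precursor and recombination genes in the tables passed the filter.

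Of 8 factors that attract B cells or keep them alive, 2 rose in ApoE against Ctrl, a share near that of all tested genes. Cxcl13, the chemokine that draws B cells into follicles, was at 19.6 and 7.14 FPKM in ApoE, 19.3 and 16.7 FPKM in CKD and 0.993 and 1.90 FPKM in Ctrl. It rose by 2.43 ± 0.44 in ApoE (SE, limma adjusted p = 0.00773) and by 2.98 ± 0.44 in CKD (adjusted p = 0.0318) against the same Ctrl libraries. The immunoglobulin sums of the CKD libraries lay below those of Ctrl, but the sums of the constant genes alone overlapped. The list of antibody receptors and transport genes also holds Clec4n, a lectin gene that is not an antibody receptor. Of this list 9 genes were tested, and 7, Clec4n among them, rose in ApoE against Ctrl. The median log2 difference of the 9 was 2.78, the value of Clec4n. They were led by Fcer1g, the shared signalling chain, at 3.94 ± 0.21 (SE, limma adjusted p = 0.000211), and Fcgr4, an IgG receptor of myeloid cells, at 4.36 ± 0.34 (adjusted p = 0.000515). In CKD against Ctrl 2 of the 9 rose, Fcer1g by 1.42 ± 0.21 (SE, limma adjusted p = 0.0306) and Fcer1a by 1.32 ± 0.24 (adjusted p = 0.0426).

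Markers of other tissues moved with the groups. All 10 smooth muscle genes fell in ApoE against Ctrl, with a summed level of 707 and 618 FPKM in ApoE, 3753 and 6359 FPKM in CKD and 8991 and 8047 FPKM in Ctrl. Of 12 white adipocyte genes, 9 rose in ApoE, with sums of 4245 and 4540 FPKM in ApoE, 10300 and 3281 FPKM in CKD and 538 and 1354 FPKM in Ctrl, and of 10 endothelial genes 4 rose and 2 fell. Of the lymph node and lymphatic list 3 of 5 tested genes rose in ApoE, Glycam1, a ligand made by lymph node venules, by 2.199 ± 0.40 (SE, limma adjusted p = 0.00758), while Ccl21a held no read outside ApoE 1. Glycam1 had passed the filter through the ApoE libraries alone. None of 11 T cell genes and none of 8 bone marrow and blood genes passed between ApoE and Ctrl. The part of the makeup of the dissected tissue in the immunoglobulin results was not tested.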

How the data were processed

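The deposited values were taken as FPKM by what they look like, as neither labels nor headers state a unit. The authors' counting tool, annotation and the roles of Bowtie2 2.2.3, HISAT2 2.1.0 and TopHat2, listed with GRCm38 per the submitters' processing notes, were not given in these sources. Per the labels' protocols, RNA was selected with poly-T beads and the kit did not mark strand. In 5 files identifiers and values were stacked in 1 column. Symbols, exon lengths and sequences came from GENCODE M21 (GRCm38). Reads were recovered as FPKM times exon length divided by the value of 1 read. Promoter windows of these genes were not used here.

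Genes that reached 1 FPKM in 2 or more libraries were fitted as log2(FPKM + 1) with limma 3.58.1 (R 4.3.3, trend and robust) in 1 model of all 6 libraries, with Benjamini-Hochberg adjustment over 14074 genes and a threshold of 0.05. Sums, shares, entropy and rarefaction were computed in Python 3.11.15 with SciPy 1.17.1, and identities with Biopython 1.88. Named were all constant genes, the 6 heavy, 6 kappa and 3 lambda V genes of highest mean level, up to 6 called rises and falls a comparison, the most abundant J segments, and up to 4 called genes of each companion list. The members and lists were chosen with earlier results of these data known. Replicate libraries differed by far more than counting error. Alternatives covered pseudocount, filters, scalings, limma options, libraries left out, a replicate block and other units. Values of some genes on the companion lists are not reported here.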

Additional observations from a re-analysis of the deposited data

How the results depend on the processing

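None of the 456 single-gene alternatives reversed a call, and the log2 ratios of summed FPKM kept their signs when 1 library was left out. The median log2 difference of the tested immunoglobulin genes, ApoE against Ctrl, did change sign. It was 1.18 over 29 genes in the main fit and -0.24 over 15 without ApoE 2. Scalings and limma options left the counts of called genes within 1.5 times for ApoE against Ctrl and ApoE against CKD. A stricter filter of 5 FPKM left 5 tested genes, all called higher in both, against 2033 and 1790 of all 8771 genes. Among these 5, Igkv3-2, Igkv12-41 and Igkv6-15 reached 5 FPKM in the ApoE libraries alone and so had to be higher there. With 1 library left out, the median log2 difference of the tested immunoglobulin genes ran from -0.24 to 1.55 for ApoE against Ctrl. It ran from 1.35 to 1.73 for ApoE against CKD and from -0.71 to -0.04 for CKD against Ctrl. The set of tested genes differed between these fits. For CKD against Ctrl, where 1 gene was called, a pseudocount of 0.1 gave 4, scaling without mitochondrial and the 50 most abundant genes 2, limma without trend and robust 2, and no filter, the stricter filter and a fit of only the 4 libraries compared 0. Over all genes these fits called, in the same order, 652 of 14074, 833 of 14077, 758 of 14074, 1 of 27815, 596 of 8771 and 3 of 13200. Where so few genes were called in all, a count of 0 says nothing about the immunoglobulin genes. The log2 ratio of summed FPKM ran from 2.01 to 3.45 for ApoE over Ctrl, -1.69 to -0.48 for CKD over Ctrl and 3.21 to 4.40 for ApoE over CKD when 1 library was left out. By depth-scaled reads the mean Ighm share in CKD was 89.7% in place of 91.2%. V genes at or above 0.1 FPKM averaged 69 in ApoE, 18 in CKD and 59 in Ctrl, and those at or above 5 FPKM 9, 0 and 0. A V gene with 1 read already exceeded 0.1 FPKM, so that threshold counts every V gene above 0 and is no separate check. At 1 FPKM the means were 21.5, 5 and 5.5, with 16 to 27 in ApoE, 4 to 6 in CKD and 3 to 8 in Ctrl when a library was left out, so the order of CKD and Ctrl at 1 FPKM depends on single libraries. Of 456 single-gene alternatives 398 kept the call and 58 lost it, 38 of them with a library left out. Same-numbered libraries correlated in their deviations at 0.05 for ApoE and Ctrl, -0.23 for CKD and Ctrl and -0.10 for ApoE and CKD, so the numbers do not pair the libraries. With a replicate block, the counts were 16 for ApoE against Ctrl, 1 for CKD against Ctrl and 20 for ApoE against CKD, against 17, 1 and 19 without it. With the CKD numbers crossed, chosen after seeing the data, the counts were 18, 3 and 21. Over all 14074 genes the block called 5159, 46 and 4556 and the crossed block 6296, 1230 and 5634, against 6208, 766 and 5592 without a block. Depth limits single V and J genes most: a library of 70 V reads shows few genes, and genes at 0 there may be present below 3 reads. The causes of these shifts were not tested, apart from the smaller number of genes or libraries in the stricter filter and the fits without a library.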

Other observations

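Further V genes with unequal reads in the libraries of 1 group follow as values. In ApoE, Igkv5-48 held 36 and 1 reads, Igkv12-46 16 and 2, Igkv4-55 1 and 29, Igkv4-59 1 and 21, Igkv8-26 0 and 21 and Ighv1-42 0 and 16. Evenly held genes were fewer: Igkv3-5 held 11 and 11 reads and Igkv10-94 8 and 8 reads in ApoE, against 1 and 0 and 0 and 0 in CKD and 0 and 1 and 0 and 0 in Ctrl. In CKD, Ighv8-4 and Igkv18-36 each held 9 and 0 reads and no read elsewhere, while Igkv1-117 held 7 and 16 and Igkv1-110 11 and 9. In Ctrl, Ighv1-81 held 8 and 2 reads, against 0 and 0 in ApoE and 1 and 1 in CKD, and Igkv10-96 held 6 and 8, against 4 and 1 in ApoE and 0 and 0 in CKD. These genes were picked after their values were seen.

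The ratio of V to constant FPKM differed between the chains. Kappa V genes summed to 0.858 and 0.444 of Igkc in ApoE, 0.787 and 1.34 in CKD and 1.28 and 1.29 in Ctrl, so that both ApoE libraries lay below both Ctrl libraries. Heavy V genes summed to 0.476 and 0.264 of the heavy constant genes in ApoE, 0.459 and 0.432 in CKD and 0.366 and 0.419 in Ctrl. Both CKD libraries lay above both Ctrl libraries, and ApoE overlapped with each of these groups. No test was made of these ratios, and the share of V reads lost to mutation or to shared sequence was not tested.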
